A study of Mus musculus with 4 samples.

Results

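The D cyclins and the CDK inhibitors, the genes that set whether a cell leaves G1 and enters S phase, were followed across the cells of mouse alveolospheres with and without a knockdown of YAP and TAZ in the fibroblasts. The set was 9 genes, taken by symbol from the 32285 genes of the count matrix: the D cyclins Ccnd1, Ccnd2 and Ccnd3, the CIP/KIP inhibitors Cdkn1a (p21), Cdkn1b (p27) and Cdkn1c (p57), and the INK4 inhibitors Cdkn2a (p16 and ARF), Cdkn2b (p15) and Cdkn2c (p18). Alveolospheres are organoids that alveolar type 2 (AT2) cells, which secrete surfactant and renew the alveolus, form together with PDGFRα+ lung fibroblasts. In the knockdown group wild-type AT2 cells were grown with fibroblasts carrying a doxycycline-inducible, PDGFRa-specific knockdown of the Hippo pathway effectors YAP and TAZ (Yap1 and Wwtr1), and the control cultures were labelled wild type. All 4 cultures, 2 a group, received 3 µg/ml doxycycline in the medium from day 7 up to collection on day 14, and the drug was thus common to both groups. The AT2 cells were selected as LysoTracker+, while the labels leave unstated which transcript stretch is targeted, whether control fibroblasts carry the construct and whether replicates are separate animals. P-values therefore reflect library-to-library spread alone, and that spread may be technical.

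D cyclins bind and activate CDK4 and CDK6, which phosphorylate the retinoblastoma protein and so free E2F factors to switch on the genes of DNA replication. INK4 proteins bind CDK4 and CDK6 and keep cyclin D away from them, whereas CIP/KIP proteins bind cyclin-CDK complexes as a whole. Cdkn1a is a classical p53 target, Cdkn2b is a classical TGF-beta target, Cdkn2a is a marker of senescence, and Ccnd1 is a gene that growth factor, Wnt and YAP signalling are known to raise. In the lung, Cdkn1a is also known as a marker of the transitional state that AT2 cells pass through on their way to alveolar type 1 (AT1) cells.

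Counts were unique molecular identifiers (UMIs) of 10x libraries, in which cells were summed within each library so that the library was the replicate. In such sums fewer cells of a type and less RNA per cell cannot be told apart. Knockdown libraries held 10545 and 6508 cells with 63758826 and 44284602 UMIs, against 15000 and 13883 cells with 71523447 and 70525226 UMIs in control libraries. Classes follow the deposited annotation, except that the deposited AT2 class was split by its clusters: cluster 9 carried AT2 markers, cluster 14 carried AT1 markers, and clusters 19 and 23 were left out because fibroblast markers stood there at 52.0% to 62.8% of their fibroblast level. Yap1, a targeted gene, stood at 40.9 and 36.4 normalised CPM (UMIs of the gene scaled to a fixed library total) in knockdown fibroblasts, against 61.3 and 64.9 CPM in control fibroblasts (log2 fold change -0.71, adjusted p = 0.00864), and Wwtr1 did not pass (-0.36, adjusted p = 0.115). In the untargeted epithelium Wwtr1 read 243 and 209 CPM in the knockdown, against 313 and 271 CPM in the control (-0.37), and Yap1 changed by -0.17. Neither passed there. The Wwtr1 effects in fibroblasts and epithelium were not called different by edgeR (-0.03, adjusted p = 0.927). Cell barcodes present in more than 1 library numbered 1073, over 2157 cells.

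The INK4 genes Cdkn2a and Cdkn2b are neighbours on mouse chromosome 4, with 11645 bases between their spans, and the windows upstream of their starts are shown because Cdkn2b was the inhibitor that rose in knockdown fibroblasts and because Cdkn2a is read from a pair of starts. Cdkn2b spans chr4:89306299-89311039 on the minus strand, and Cdkn2a spans chr4:89274471-89294653 on the same strand (GRCm38). The distal start of Cdkn2a serves ARF and the proximal start serves p16; their last exons are shared, so counts from the 3′ end cannot tell these products apart. Each window is the 250 bases before a start, 5′ to 3′ on the minus strand, from RefSeq (GRCm38.p6), with matches to the searched motifs in capitals.
Cdkn2b (chr4:89311033-89311282): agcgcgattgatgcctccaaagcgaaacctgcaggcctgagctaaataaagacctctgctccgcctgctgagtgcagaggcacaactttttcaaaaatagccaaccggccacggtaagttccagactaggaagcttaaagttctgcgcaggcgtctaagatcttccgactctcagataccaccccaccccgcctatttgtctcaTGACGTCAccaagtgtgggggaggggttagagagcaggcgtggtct
Cdkn2a, distal start (chr4:89294620-89294869): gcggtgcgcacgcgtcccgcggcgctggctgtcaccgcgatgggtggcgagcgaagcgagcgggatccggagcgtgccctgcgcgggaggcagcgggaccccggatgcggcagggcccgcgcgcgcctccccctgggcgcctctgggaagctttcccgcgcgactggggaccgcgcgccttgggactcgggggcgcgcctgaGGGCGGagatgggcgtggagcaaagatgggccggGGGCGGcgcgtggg
Cdkn2a, proximal start (chr4:89282193-89282442): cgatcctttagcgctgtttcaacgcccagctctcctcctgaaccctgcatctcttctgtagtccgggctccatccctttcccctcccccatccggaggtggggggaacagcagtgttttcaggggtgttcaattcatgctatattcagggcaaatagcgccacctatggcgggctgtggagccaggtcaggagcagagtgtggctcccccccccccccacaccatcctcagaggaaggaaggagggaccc

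Both strands were searched for 6 motifs spelled in full: TEAD (GGAATG), TCF/LEF (CTTTGA), E2F (TTGGCGC), Sp1 (GGGCGG), AP-1 (TGACTCA) and CREB/ATF (TGACGTCA). The Cdkn2b window held 1 CREB/ATF match, a motif present in 1.55% of 32817 windows of the same length. The distal Cdkn2a window held 2 Sp1 matches, a motif in 32.7% of windows, and the proximal Cdkn2a window held no match. The capitalised matches in these windows do not overlap. Base composition differed widely between the 3 windows: G and C made up 78.4% of the distal Cdkn2a window with 40 CpG pairs, against 53.6% with 12 CpG pairs for Cdkn2b and medians of 52.4% and 6 over all windows. TEAD factors are the DNA-binding partners of YAP and TAZ. Over the 10 windows of the 6 members with an entry (Ccnd3, Cdkn1a, Cdkn1b, Cdkn2a, Cdkn2b and Cdkn2c), the TEAD letters occurred in 1, at a start of Ccnd3, against 12.6% of all windows, and the Sp1 letters in 6. These matches are descriptions of letters, and their use in these cells was not tested.

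In the fibroblasts, the cells that were targeted, Ccnd1 fell and Cdkn2b rose, and the other 7 members did not pass (edgeR quasi-likelihood test, Benjamini-Hochberg adjusted p under 0.05). The call rate over all 17481 genes tested was 10.6%, and at that background 2 of 9 members is nothing particular to the set. Without knockdown library 2 neither gene passed, and the count was 0. The median log2 fold change of the members was 0.13, against 0.01 over all genes tested. In the epithelium grown with these fibroblasts 0 of 9 members passed by edgeR, and DESeq2 and limma voom also called 0, where 1.44% of 13952 genes passed. By edgeR 1 of 9 members had an unadjusted p under 0.05, as had 1586 of all 13952 genes.

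**Figure D1:**
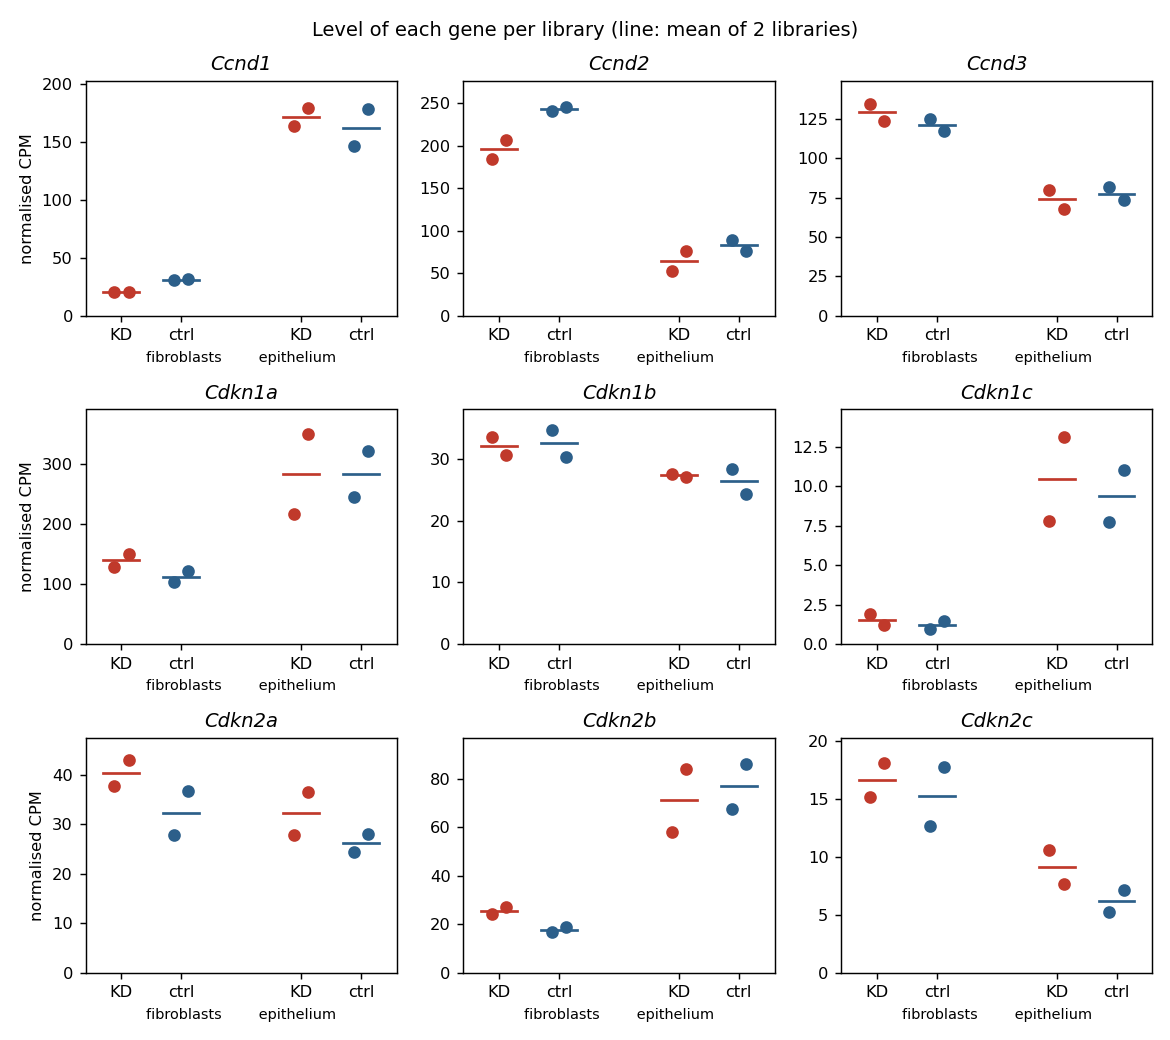
Normalised CPM (y axes, from 0) of the 9 genes in each library of the fibroblast and the epithelial sums, knockdown (KD, red) left of control (ctrl, blue); points are libraries and lines are means of 2. Knockdown points for Ccnd1 lie below both control points in fibroblasts and those for Cdkn2b lie above them, while in the epithelium the groups of both genes overlap.

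Ccnd1 (chr7:144929931-144939925, minus strand), the cyclin that growth signals induce, had 20.8 and 20.1 CPM in knockdown fibroblasts, against 31.0 and 31.4 CPM in control fibroblasts. The libraries of the groups did not overlap, and the spread within each group was under 1 CPM. The log2 fold change was -0.61 ± 0.10 (SE, n = 2 libraries a group) with an edgeR adjusted p of 0.0118. Knockdown fibroblasts thus held 0.657 of the control level. The call was made under 12 of 13 alternatives and lost without knockdown library 2 (log2 -0.58, adjusted p = 0.0728). It remained when cycling fibroblasts were left out (log2 -0.64, adjusted p = 0.0114). Fibroblast clusters also changed in number: with each of the 10 clusters that held at least 50 cells in every library given a fixed weight, a comparison chosen after seeing the data, the log2 difference was -0.37. LTO1, a gene on the opposite strand, overlaps 1771 bases of Ccnd1 and read 6.11 and 6.34 CPM in knockdown fibroblasts, against 6.12 and 7.33 CPM in control fibroblasts; the labels leave the strand setting of the counting unstated.

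Cdkn2b, the INK4 inhibitor p15, moved the other way. It had 24.3 and 27.0 CPM in knockdown fibroblasts, against 16.6 and 18.9 CPM in control fibroblasts, again with no overlap between the groups. The log2 fold change was 0.53 ± 0.12 with an edgeR adjusted p of 0.0328, and knockdown fibroblasts held 1.44 times the control level. It dropped out of the calls without knockdown library 1 (adjusted p = 0.0576), knockdown library 2 (adjusted p = 0.175) or control library 1 (adjusted p = 0.0581). With fixed cluster weights the log2 difference was 0.61.

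RNA of epithelial markers was also present in the fibroblast sums, and the marker lists moved in different directions. The 8 AT2 markers summed to 2236 and 1174 CPM in knockdown fibroblasts, against 806 and 863 CPM in control fibroblasts, with none of them at 0, or 2.78% and 1.19% of their level in AT2 cells in the knockdown, against 1.19% and 0.940% in the control. The 6 transitional epithelial markers summed to 220 and 231 CPM in knockdown fibroblasts, against 324 and 277 CPM in control fibroblasts. The 8 AT1 markers summed to 144 and 166 CPM in knockdown fibroblasts, against 211 and 195 CPM in control fibroblasts, and the 4 pan-epithelial markers to 84.7 and 79.5 CPM, against 82.6 and 71.6 CPM in the control. AT2 markers were thus higher in the knockdown, AT1 and transitional markers were lower and the ranges of pan-epithelial markers overlapped, with no marker of these lists at 0. At the shares of the AT2 list the epithelial level of Cdkn2b would give 1.55 and 1.02 CPM in knockdown fibroblasts, against 0.828 and 0.811 CPM in control fibroblasts. The same calculation for Ccnd1 gave 4.36 and 2.17 CPM in knockdown fibroblasts, against 1.79 and 1.68 CPM in control fibroblasts. Both calculations took the share against AT2 cells but the gene level from all epithelial cells. AT2 markers summed lower in all epithelial cells, to 45983 and 34091 CPM in the knockdown, against 23935 and 37803 CPM in the control. Shares against those sums, and the CPM they would give, would be larger than the values printed here. Cycling markers summed to 76.1 and 97.8 CPM in knockdown fibroblasts, against 168 and 185 CPM in control fibroblasts, with none of the 6 at 0. The 4 basal cell markers summed to 0.957 and 1.13 CPM in knockdown fibroblasts, where 3 and 1 of them were at 0, against 18.7 and 15.5 CPM in control fibroblasts. The 5 airway secretory markers summed to 1.13 and 259 CPM in knockdown fibroblasts, against 1350 and 280 CPM in control fibroblasts. They thus differed widely between libraries of the same group. The part of these cells in the member results was not tested, beyond the fit without the cycling class.

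Ccnd2 (chr6:127125162-127152193, minus strand), the D cyclin with the clearest fibroblast bias here, did not pass over all fibroblasts. It had 184 and 207 CPM in knockdown fibroblasts, against 241 and 246 CPM in control fibroblasts, a log2 difference of -0.32 ± 0.13 with adjusted p = 0.156. The groups did not overlap. Ccnd3 (chr17:47505051-47599691, plus strand), the D cyclin best known from blood cells, read 135 and 124 CPM in knockdown fibroblasts, against 125 and 118 CPM in control fibroblasts, with overlapping libraries (0.09 ± 0.11, adjusted p = 0.624). Its sign turned to a log2 difference of -0.12 when each class, and -0.14 when each cluster, had a fixed weight.

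Of the CIP/KIP genes, Cdkn1a (chr17:29090976-29100727, plus strand) had 128 and 150 CPM in knockdown fibroblasts, against 103 and 122 CPM in control fibroblasts. The log2 difference of 0.31 ± 0.14 did not pass (adjusted p = 0.187), although neither knockdown library reached down to a control library. Cdkn1b (chr6:134920401-134925513, plus strand), the inhibitor typical of quiescent cells, read 33.5 and 30.6 CPM in knockdown fibroblasts, against 34.7 and 30.3 CPM in control fibroblasts (-0.02 ± 0.12, adjusted p = 0.932). Cdkn1c (chr7:143458339-143461050, minus strand), an imprinted inhibitor, was near the limit of detection, with 1.88 and 1.24 CPM in knockdown fibroblasts, against 0.967 and 1.46 CPM in control fibroblasts (0.38 ± 0.30, adjusted p = 0.441).

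The remaining INK4 genes did not pass in the fibroblasts. Cdkn2a had 37.8 and 43.0 CPM in knockdown fibroblasts, against 27.9 and 36.7 CPM in control fibroblasts (0.32 ± 0.15, adjusted p = 0.201). Both knockdown libraries lay above both control libraries, the nearest pair only narrowly. Cdkn2c (chr4:109660876-109667189, minus strand) read 15.2 and 18.1 CPM in knockdown fibroblasts, against 12.7 and 17.8 CPM in control fibroblasts, and the groups overlapped (0.13 ± 0.18, adjusted p = 0.667).

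In the epithelium the libraries within a group were mostly spread as widely as the groups were apart. Ccnd1 read 164 and 179 CPM in knockdown epithelium, against 146 and 178 CPM in control epithelium. Cdkn2b read 58.2 and 84.2 CPM in knockdown epithelium, against 67.7 and 86.3 CPM in control epithelium. The groups overlapped for both genes that had passed in fibroblasts. Ccnd2 read 52.4 and 76.3 CPM in knockdown epithelium, against 89.0 and 76.7 CPM in control epithelium (-0.37 ± 0.19, adjusted p = 0.495). Cdkn1a differed between replicates far more than between groups, with 217 and 349 CPM in knockdown epithelium, against 245 and 322 CPM in control epithelium. The mix of epithelial classes also differed between libraries. Transitional epithelial cells made up 29.6% and 46.5% of knockdown epithelium, against 46.2% and 37.8% of control epithelium. For AT2 cells the shares were 34.45% and 17.8%, against 21.85% and 28.1%. The part of these shares in the epithelial values was not tested. Cdkn2c had the largest epithelial difference among the members, with 10.6 and 7.63 CPM in knockdown epithelium, against 5.24 and 7.14 CPM in control epithelium (0.59 ± 0.25), and it did not pass (adjusted p = 0.397). Over its 13 alternatives the Cdkn2c difference ranged from 0.14 to 0.80. Cycling AT2 cells, where Cdkn2c was high, made up 18.2% and 12.9% of knockdown epithelium, against 10.7% and 11.7% of control epithelium. Their part in the Cdkn2c difference was not tested beyond a fit without them.

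**Figure D2:**
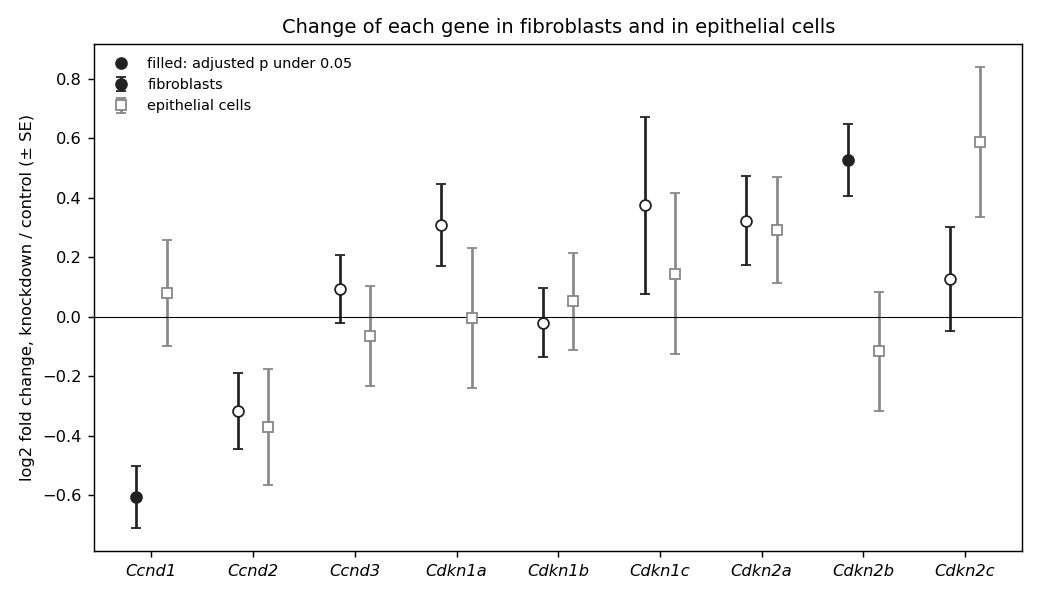
Log2 fold change of knockdown over control (y axis, ± SE, n = 2 libraries a group) for each gene in fibroblasts (black circles) and epithelial cells (grey squares); filled symbols passed at an adjusted p under 0.05. Ccnd1 at -0.61 and Cdkn2b at 0.53 in fibroblasts are the filled symbols.

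The responses of the compartments were then compared directly, as an interaction of compartment and group with the library as a block. The fibroblast effect on Ccnd1 minus the epithelial effect was -0.73 ± 0.13 on the log2 scale (edgeR adjusted p = 0.0117), and for Cdkn2b the same difference was 0.62 ± 0.15 (adjusted p = 0.0453). The other 7 members did not pass. The call rate was 3.55% of 17188 genes. The Ccnd1 difference was called under 10 of 11 alternatives and lost without control library 1 (adjusted p = 0.143). The Cdkn2b difference was lost under 5 of 11, namely with DESeq2 (adjusted p = 0.121), without knockdown library 1 (0.0937), without control library 1 (0.0773), without control library 2 (0.190) and without the cycling classes (0.0765).

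Within the 12 classes that had at least 50 cells in every library, 7 of 101 member tests passed, where 3.28% of all gene tests did. These tests share libraries and are not independent of each other. Values by class and cluster are CPM over the library's own total for those cells, without TMM scaling. Ccnd1 accounted for 3 of the 7 calls, all of them falls in fibroblast classes. The others were Ccnd2 in cycling AT2 cells, Cdkn2a and Cdkn2b in the EMT-like class and Cdkn1a in the class deposited as Inflammatory Fibroblasts-2.

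The EMT-like class held 3 of the calls, the most of any class, where 6.24% of genes were called. Ccnd1 stood there at 13.7 and 11.95 CPM in knockdown cells, against 25.3 and 20.7 CPM in control cells (log2 -0.79 ± 0.19, adjusted p = 0.0195). Cdkn2b stood at 24.7 and 25.8 CPM in knockdown cells, against 15.02 and 15.3 CPM in control cells (0.77 ± 0.17, adjusted p = 0.0117). Cdkn2a stood at 42.2 and 57.0 CPM in knockdown cells, against 29.6 and 36.1 CPM in control cells (0.62 ± 0.16, adjusted p = 0.0342). Groups did not overlap for any of the 3 genes. DESeq2 called none of them (adjusted p = 0.0793 for Ccnd1, 0.0527 for Cdkn2b and 0.0917 for Cdkn2a). The Ccnd1 and Cdkn2a calls were also lost without knockdown library 2 (adjusted p = 0.141 and 0.309) or control library 1 (0.109 and 0.186), and the Cdkn2a call also with library totals as the scaling (0.0581). Within its cluster 25 Ccnd1 read 8.34 and 9.15 CPM in knockdown cells, against 21.9 and 19.5 CPM in control cells. That cluster was a minor part of the class, with 197 and 149 knockdown cells, against 107 and 166 control cells. Cluster 1 held 896 and 533 knockdown cells, against 1762 and 1178 control cells, and cluster 33 held only control cells (135 and 18).

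In the Myofib-like class, where 7.33% of genes were called, Ccnd1 read 19.9 and 19.4 CPM in knockdown cells, against 39.0 and 38.2 CPM in control cells (log2 -0.91 ± 0.17, adjusted p = 0.00338). This class joins clusters of different Ccnd1 level, and their balance shifted. Cluster 15, the one rich in Ccnd1, held 99 and 39 of the knockdown cells, against 703 and 594 of the control cells, and cluster 4 held 519 and 439 knockdown cells, against 858 and 918 control cells. Within cluster 4 Ccnd1 read 12.2 and 15.7 CPM in knockdown cells, against 19.03 and 15.6 CPM in control cells, so the groups overlapped there. Within cluster 15 it read 55.8 CPM in knockdown library 1, against 57.6 and 65.8 CPM in control cells. The smaller share of cluster 15 stood beside the class-wide fall, and its part in it was not tested. The Myofib-like result did not pass with no filter on low counts (adjusted p = 0.181).

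The class deposited as Fibroblasts, where 8.23% of genes were called, also changed its mix of clusters. Ccnd1 read 20.3 and 22.6 CPM in knockdown cells, against 33.5 and 32.3 CPM in control cells (log2 -0.57 ± 0.13, adjusted p = 0.0223). Cluster 5 held 1393 and 1149 of the knockdown cells, against 7 and 76 of the control cells, and cluster 0 held 66 and 23 knockdown cells, against 2412 and 2035 control cells. In cluster 5 Ccnd1 read 19.05 and 24.96 CPM in knockdown cells, against 17.03 CPM in control library 2. In cluster 0 it read 31.4 CPM in knockdown library 1, against 36.3 and 38.7 CPM in control cells. In cluster 11, held by all libraries, it read 28.7 and 22.2 CPM in knockdown cells, against 46.0 and 33.5 CPM in control cells, and in cluster 8 the groups overlapped (20.2 and 12.05 CPM in knockdown cells, against 16.99 and 21.5 CPM in control cells). It was not called without knockdown library 1 (adjusted p = 0.0672) and with no filter on low counts (0.0791).

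**Figure D3:**
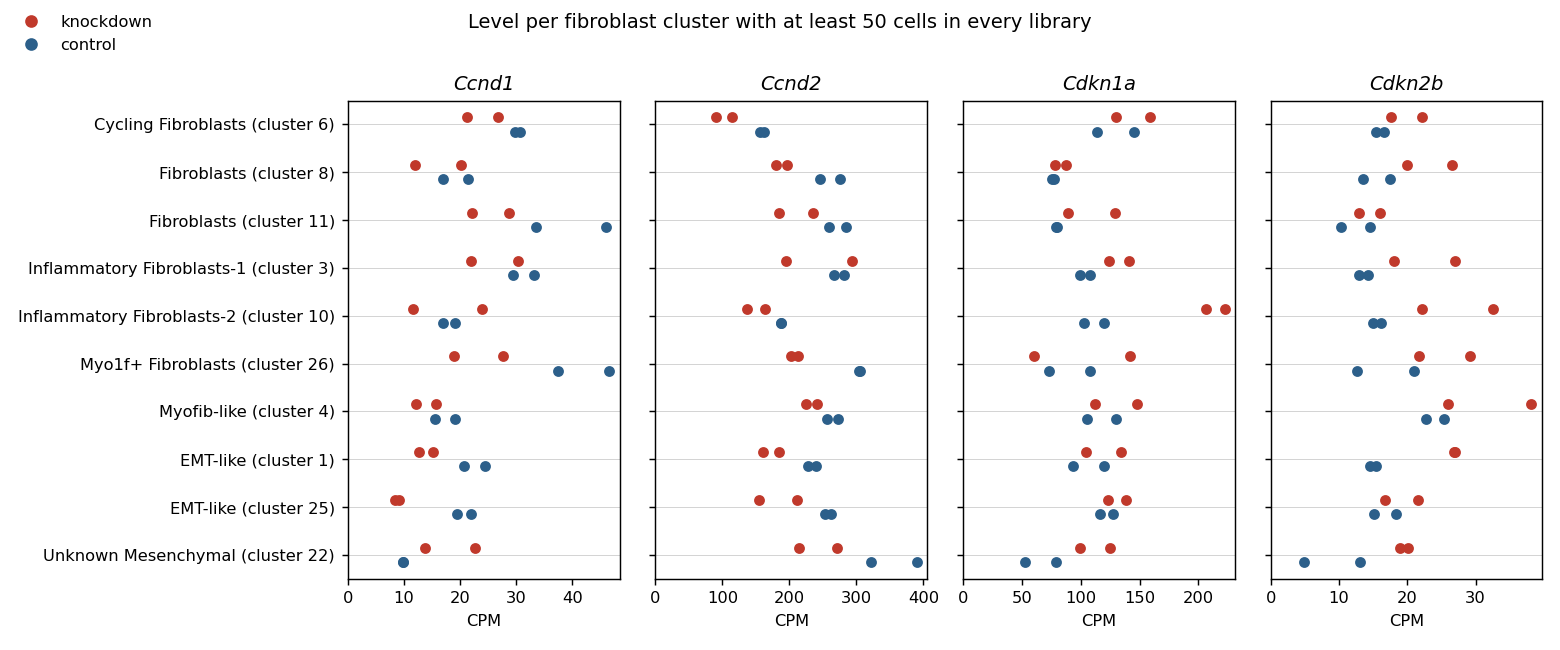
CPM (x axes, from 0) of 4 genes in each of the 10 fibroblast clusters with at least 50 cells in every library; points are libraries, knockdown (red) drawn above control (blue). The knockdown mean of Ccnd2 is below and those of Cdkn1a and Cdkn2b are above the control mean in all 10 clusters.

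Direction was also read cluster by cluster, as a description. The mean of the knockdown libraries was below that of the control libraries in 10 of 10 clusters for Ccnd2 and in 9 of 10 for Ccnd1. For Cdkn2b and Cdkn1a the knockdown mean was higher in 10 of 10 clusters, and for Cdkn2a in 9 of 10. Of all genes tested in fibroblasts, 6.89% were lower and 4.47% were higher in every one of these clusters; the clusters come from the same 4 libraries and are no replicates. With fixed cluster weights Ccnd2 averaged 176 and 207 CPM in knockdown fibroblasts, against 255 and 243 CPM in control fibroblasts. For Cdkn1a the weighted levels were 115 and 139 CPM in knockdown fibroblasts, against 96.0 and 108 CPM in control fibroblasts. These clusters covered 46.9% and 48.7% of knockdown fibroblasts, against 60.4% and 62.8% of control fibroblasts.

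Cdkn1a passed in the class deposited as Inflammatory Fibroblasts-2, where 2.56% of genes were called. It read 191 and 230 CPM in knockdown cells, against 113 and 131 CPM in control cells (log2 0.80 ± 0.19, adjusted p = 0.0143). Its cluster 10, which held most of the class in every library, was separated too, with 207 and 222 CPM in knockdown cells, against 103 and 119 CPM in control cells. It was not called without knockdown library 1 (adjusted p = 0.0519), knockdown library 2 (0.168) or control library 1 (0.118).

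The largest of the 7 called changes was that of Ccnd2 in cycling AT2 cells, where 1.34% of genes were called. Ccnd2 read 18.4 and 20.3 CPM there in knockdown cells, against 50.2 and 53.5 CPM in control cells, with the groups far apart. The log2 fold change was -1.41 ± 0.23 with adjusted p = 0.000108, and it was called under 10 of 10 alternatives. Fibroblast RNA moved with it: fibroblast markers in cycling AT2 cells stood at 8.33% and 4.90% of their fibroblast level in knockdown libraries, against 12.7% and 9.34% in control libraries. At those shares the fibroblast level of Ccnd2 would give 14.8 and 10.2 CPM in knockdown cells, against 31.6 and 22.96 CPM in control cells. Fibroblast RNA at such a share would thus make up a large part of the Ccnd2 reads of these AT2 cells in both groups, and its part in the fall was not tested. In AT2 cells outside the cycling class Ccnd2 read 28.4 and 37.8 CPM in knockdown cells, against 48.0 and 43.9 CPM in control cells, and it did not pass.

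**Figure D4:**
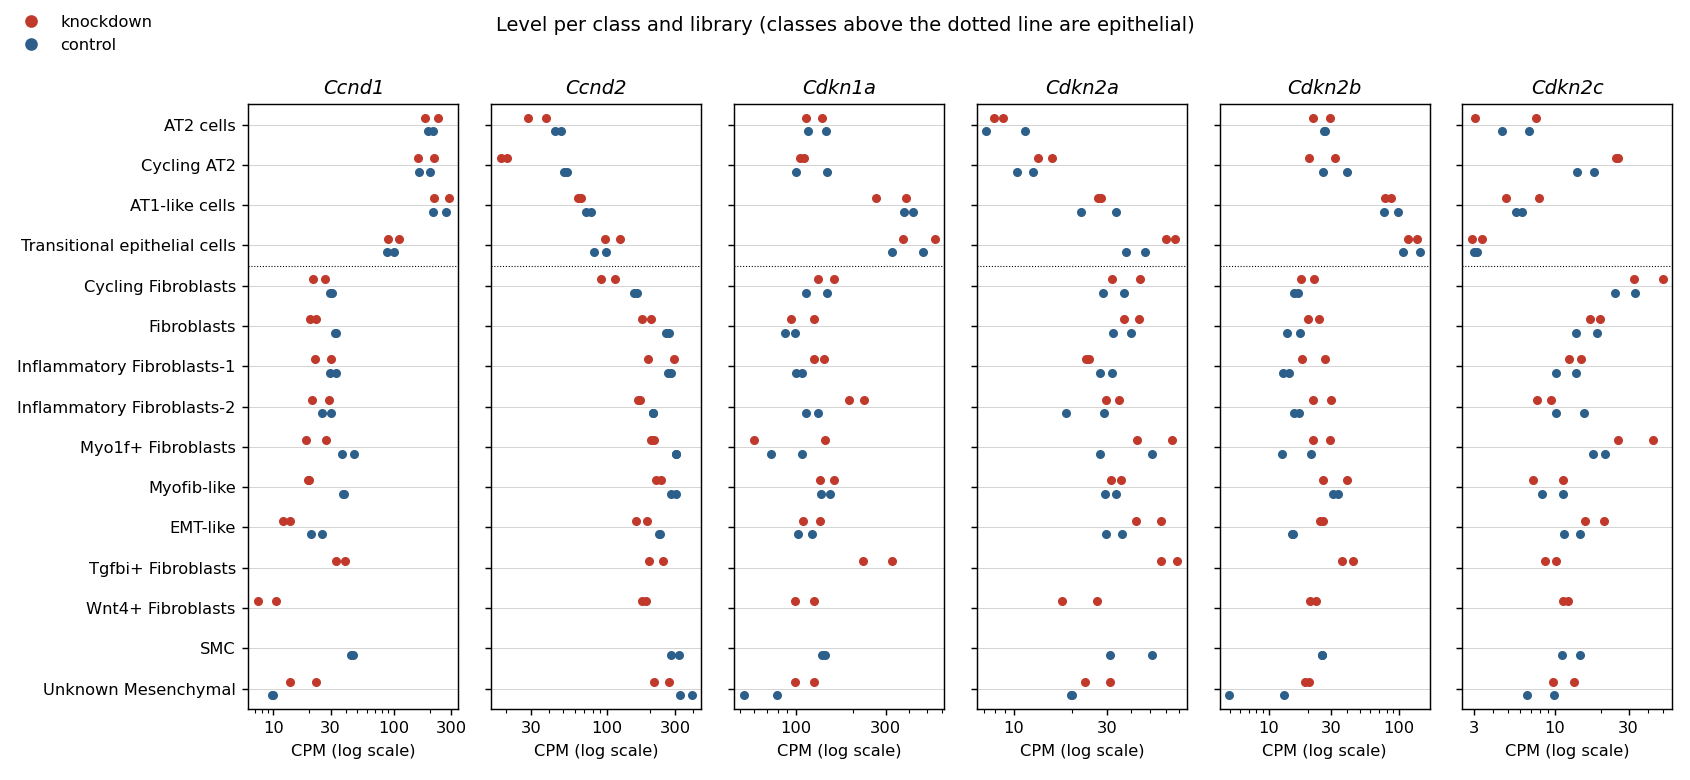
CPM (x axes, log scale) of 6 genes in each class and library with at least 50 cells; points are libraries, knockdown (red) drawn above control (blue), and classes above the dotted line are epithelial. Ccnd1 is higher in the epithelial than in the fibroblast classes drawn, and Cdkn2c has its highest mean in cycling fibroblasts.

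Ccnd1 and Ccnd2 were high in different cell classes. These levels are a description without a test, since the deposited clusters were made from expression that includes these genes. Ccnd1 was highest in AT1-like cells (219 and 289 CPM in knockdown cells, against 214 and 271 CPM in control cells), and its level in AT2 cells (182 and 233 CPM in knockdown cells, against 212 and 195 CPM in control cells) overlapped with it in the knockdown and lay just below it in the control. Cycling AT2 cells followed and transitional epithelial cells came last among the epithelial classes, at 90.5 and 112 CPM in knockdown cells, against 88.6 and 102 CPM in control cells. No fibroblast class reached 50 CPM of Ccnd1. The lowest was the Wnt4+ class of the knockdown, at 10.6 and 7.46 CPM; that class made up 18.2% and 18.95% of knockdown fibroblasts and held only 7 and 32 control cells. The class deposited as SMC, which with the Myo1f+ class had the most Ccnd1 among control fibroblasts (44.0 and 46.0 CPM), made up 0.642% and 0.0976% of knockdown fibroblasts, against 6.01% and 6.56% of control fibroblasts. Leaving out SMC with the EMT-like and unknown mesenchymal classes gave a Ccnd1 fall of -0.54 over the remaining fibroblasts (adjusted p = 0.0162).

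Ccnd2 lay between 90.9 and 391 CPM in the fibroblast classes and between 18.4 and 124 CPM in the 4 named epithelial classes, whereas an unnamed epithelial cluster of control library 1 held 356 CPM. Cycling fibroblasts held less of it than other fibroblasts, with ratios of 0.4998 and 0.532 in knockdown libraries, against 0.618 and 0.602 in control libraries. Ccnd3 was more even, and was highest in the Wnt4+ and unknown mesenchymal classes of the knockdown (170 and 174, and 158 and 157 CPM) and in the SMC and unknown mesenchymal classes of the control (189 and 165, and 178 and 167 CPM). The knockdown pair of classes did not overlap, and the control pair did.

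Among epithelial classes the inhibitors Cdkn1a, Cdkn2a and Cdkn2b were all highest in transitional cells, although AT1-like cells overlapped with them for Cdkn1a. In transitional epithelial cells Cdkn1a read 370 and 547 CPM in knockdown cells, against 325 and 477 CPM in control cells. Cdkn2b read 118 and 137 CPM there in knockdown cells, against 106 and 145 CPM in control cells, several times its level in AT2 cells (21.8 and 29.3 CPM in knockdown cells, against 26.5 and 27.1 CPM in control cells). Cdkn2a read 60.5 and 66.9 CPM in transitional knockdown cells, against 37.7 and 47.2 CPM in control cells, without overlap, although the class fit did not call it. AT2 cells held the least Cdkn2a, at 8.79 and 7.93 CPM in knockdown cells, against 11.4 and 7.24 CPM in control cells, and cycling AT2 cells overlapped with them in the control but not in the knockdown. AT1-like cells came second for Cdkn1a and Cdkn2b. They read 268 and 387 CPM of Cdkn1a in knockdown cells, against 375 and 418 CPM in control cells, and their Cdkn2b lay between 76.3 and 98.5 CPM.

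Among fibroblast classes the Tgfbi+ class had the highest mean of all 3 of these inhibitors. It made up 12.5% and 7.89% of knockdown fibroblasts and held 5 and 38 control cells, too few for a control level. In the knockdown libraries it read 226 and 325 CPM of Cdkn1a, 56.9 and 69.0 CPM of Cdkn2a and 36.1 and 44.2 CPM of Cdkn2b. Its range overlapped with knockdown cells of Inflammatory Fibroblasts-2 for Cdkn1a, of the Myo1f+ and EMT-like classes for Cdkn2a and of the Myofib-like class for Cdkn2b. Its share of the knockdown cells entered the fibroblast sums above, whereas the fixed weights left it out.

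Cdkn2c was highest in cycling fibroblasts in both groups. In cycling fibroblasts it read 32.3 and 50.02 CPM in knockdown cells, against 24.4 and 33.1 CPM in control cells. That was 2.35 and 3.07 times the level of the other fibroblasts in knockdown libraries, against 2.12 and 2.13 times in control libraries. In cycling AT2 cells the ratio to other epithelial cells was 4.88 and 5.69 in knockdown libraries, against 3.46 and 3.47 in control libraries. The Myo1f+ class came second, at 25.7 and 43.4 CPM in knockdown cells, against 17.6 and 21.0 CPM in control cells, and in the knockdown it overlapped with cycling fibroblasts. Cycling AT2 cells, at 25.5 and 24.9 CPM in the knockdown, against 14.0 and 17.8 CPM in the control, overlapped in the control with the class deposited as Fibroblasts. Cdkn2c is known as an E2F-responsive gene. Cdkn1a in cycling AT2 cells read 105 and 111 CPM in knockdown cells, against 99.8 and 146 CPM in control cells, near its level in other AT2 cells (113 and 137 CPM in knockdown cells, against 116 and 145 CPM in control cells).

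Cdkn1b lay between 15.4 and 49.5 CPM in every class and library with at least 50 cells, and in the knockdown the EMT-like class, at 37.8 and 40.7 CPM, lay above all other classes. Cdkn1c was mainly epithelial: AT1-like cells read 8.18 and 21.9 CPM in knockdown cells, against 19.5 and 18.5 CPM in control cells, and the fibroblast sums stayed under 2 CPM. In the unknown mesenchymal class it had 0 counts in both control libraries, too few for a fold.

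The genes whose pattern over 60 class-by-library sums was most like each member were picked by Pearson correlation of log2(CPM + 1) among 11143 genes with a mean of at least 5 CPM. The sums share libraries and clusters, so the values are descriptions. For Ccnd1 these were Arhgap44 (0.95), Crip2 (0.94) and Adgrf5 (0.93), and for Ccnd2 Arhgef25 (0.93), Mgat3 (0.91) and Sh3kbp1 (0.90). Zcchc14, Ubr1 and Nrep were nearest to Ccnd3 (each 0.86). Cdkn1a had the member Cdkn2b second on its list (0.87), between Msn (0.87) and Wdr1 (0.86), and Msn was also on the list of Cdkn2b (0.88) with Ramp1 (0.89) and Psmd8 (0.88). Flna (0.835), Fn1 (0.81) and Phlda3 (0.81) were nearest to Cdkn2a, and Kdf1, Vsig2 and Sh2d4a to Cdkn1c (each 0.91). Likeness was lower for Cdkn2c (Nt5dc2, Sdk1 and Gins4, each 0.76) and lowest for Cdkn1b (Sav1 and Bckdhb at 0.62, Scara3 at 0.59). Between members, Ccnd1 and Ccnd2 ran against each other (-0.73).

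The rest of the G1/S machinery was read from a list of 25 genes: CDKs, E and A cyclins, pocket proteins, E2F factors and their regulators. In fibroblasts 7 of 25 fell, 0 rose and 18 did not pass, with a median of -0.17, where 1087 of the 17481 genes tested fell and 773 rose, with a median of 0.01; limma voom also called 0 rises and DESeq2 called 1. E2f7, an E2F repressor that is itself an E2F target, read 2.80 and 2.72 CPM in knockdown fibroblasts, against 6.23 and 6.35 CPM in control fibroblasts (log2 -1.19 ± 0.15, adjusted p = 0.00402). Cdk6, the kinase partner of the D cyclins, read 30.5 and 29.9 CPM in knockdown fibroblasts, against 52.6 and 47.6 CPM in control fibroblasts (-0.73 ± 0.11, adjusted p = 0.00679). Skp2, the ubiquitin ligase subunit that directs p27 to degradation, read 6.62 and 6.16 CPM in knockdown fibroblasts, against 11.2 and 11.3 CPM in control fibroblasts (-0.82 ± 0.12, adjusted p = 0.00778). Cdc25a (-0.57) and E2f8 (-0.72) fell too, with edgeR adjusted p = 0.0312 and 0.0358. Cycling fibroblasts made up 2.9% and 3.9% of knockdown fibroblasts, against 9.1% and 9.0% of control fibroblasts. Their part in the falls of the list was not tested beyond a fit without them. The count of falls was 3 without cycling fibroblasts, 3 without knockdown library 1 and 3 without knockdown library 2, and E2f7, Cdk6 and Skp2 passed under 13 of 13 alternatives each. In epithelial cells 0 of 25 passed by edgeR, DESeq2 or limma voom. By edgeR 5 of 25 had an unadjusted p under 0.05, as had 1586 of all 13952 genes tested there. The fibroblast effect lay below the epithelial effect for E2f7 (-1.47, adjusted p = 0.00291) and Cdk6 (-0.59, adjusted p = 0.0185). The difference did not pass for Skp2 (-0.58, edgeR adjusted p = 0.249), Cdc25a (-0.56, 0.133) and E2f8 (-1.05, 0.0689). Over the list 6 of 25 differences passed, all of them lower in fibroblasts, and 19 did not, where 3.55% of 17188 genes passed. Cycling AT2 cells made up 18.2% and 12.9% of knockdown epithelium, against 10.7% and 11.7% of control epithelium. Their share was thus higher in the knockdown, where that of cycling fibroblasts was lower. The part of these shares in the differences was not tested beyond a fit without both cycling classes.

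At the background of 10.6% called, lists around the inhibitors were read next. Of 15 p53 response genes, 1 rose in fibroblasts: Gadd45a, a growth arrest gene, at 78.9 and 75.2 CPM in knockdown fibroblasts, against 52.7 and 49.6 CPM in control fibroblasts (log2 0.59 ± 0.10, adjusted p = 0.0130). Gadd45a missed the threshold once knockdown library 1 was left out (adjusted p = 0.0692) or with a length correction (0.0581), and its effect differed between the compartments (0.68, adjusted p = 0.0304). The list median of 0.08 was near that of all genes. In epithelial cells 0 of 15 passed by edgeR, DESeq2 or limma voom, and 0 had an unadjusted p under 0.05, where 1586 of all 13952 genes had. Of 10 upstream regulators 1 rose, 1 fell and 8 did not pass, with a median of -0.14, and 5 had an unadjusted p under 0.05, as had 4975 of all 17481 genes. Foxo1, a forkhead factor known to act on Cdkn1b and Ccnd1, rose (32.5 and 29.3 CPM in knockdown fibroblasts, against 22.6 and 20.8 CPM in control fibroblasts, adjusted p = 0.0291). Ezh2, the Polycomb methyltransferase that silences the Cdkn2a locus, fell (17.2 and 18.1 CPM in knockdown fibroblasts, against 25.7 and 25.7 CPM in control fibroblasts, adjusted p = 0.0191). Both calls were lost without knockdown library 1 (adjusted p = 0.149 for Foxo1 and 0.0992 for Ezh2) or library 2 (0.0627 and 0.0733). The Foxo1 effect differed between the compartments (0.75, adjusted p = 0.00658). In epithelial cells 0 of 10 passed by edgeR, DESeq2 or limma voom, and 1 had an unadjusted p under 0.05, where 1586 of all 13952 genes had. Ezh2 is known to be high in dividing cells.

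Genes linked to senescence moved in both directions in fibroblasts. Lmnb1, the nuclear lamin that is lost in senescent cells and that cycling cells express, read 13.1 and 13.4 CPM in knockdown fibroblasts, against 22.2 and 23.8 CPM in control fibroblasts (log2 -0.80 ± 0.11, adjusted p = 0.00551). Igfbp7, a gene of a secreted IGF-binding protein, read 2581 and 2561 CPM in knockdown fibroblasts, against 675 and 1127 CPM in control fibroblasts (1.51 ± 0.25, adjusted p = 0.0108). By contrast Il6, the gene of a secreted inflammatory cytokine, fell (-0.67, adjusted p = 0.0165), and it missed the threshold once knockdown library 1 (adjusted p = 0.0656) or knockdown library 2 (0.0582) was left out. The effect on Lmnb1 differed between the compartments (-0.83, adjusted p = 0.00307). For Igfbp7 (0.44, edgeR adjusted p = 0.200) and Il6 (-0.16, 0.759) the difference did not pass. Igfbp7 read 1082 and 1531 CPM in knockdown epithelium, against 452 and 813 CPM in control epithelium (log2 1.05, edgeR adjusted p = 0.119). In epithelial cells Igfbp3, a gene of another IGF-binding protein, fell (-1.25 ± 0.26, adjusted p = 0.0291). It read 7.38 and 4.13 CPM in knockdown epithelium, against 15.9 and 12.3 CPM in control epithelium. Fibroblasts held more, at 53.5 and 47.4 CPM in the knockdown, against 47.9 and 56.5 CPM in the control. Fibroblast markers in the epithelial sums stood at 617 and 429 CPM in the knockdown, against 985 and 822 CPM in the control. The part of fibroblast RNA in the Igfbp3 fall was not tested. Igfbp3 did not pass without control library 1 (adjusted p = 0.146), without cycling AT2 cells (0.174) and without the unnamed cluster (0.184).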

How the data were processed

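The authors deposited a matrix of UMI counts per gene and cell, with per-cell annotation that includes class, cluster, total count and a mitochondrial percent; the deposited totals equalled the matrix sums in 45936 of 45936 cells. Reads were aligned to GRCm38 (mm10), per the submitters' processing notes. A further 54 cell columns were not used. Counts were summed per library and compartment or class, with at least 50 cells in every library for a class test, and tested over all genes with edgeR 4.0.16 in R 4.3.3 (TMM scaling, filterByExpr, quasi-likelihood test, Benjamini-Hochberg adjusted p under 0.05); fold changes are log2 of knockdown over control. The SE of a fold change is its size over the square root of the edgeR F statistic, whose spread is moderated across genes. DESeq2 1.42.0 and limma 3.58.1 were alternatives. Compartment values are TMM-normalised CPM, and class and cluster values are plain CPM. The length correction used GENCODE gene spans, since the deposited gene table holds none. No cells were filtered further and no doublet caller was run. The members and lists were chosen with earlier results of these data known. Named genes were the 9 members, up to 5 called genes of each list by smallest adjusted p, and the 3 genes of most similar pattern. All samples carry 1 batch label. A listed gene is not reported here, and counts over its list are left out.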

Additional observations from a re-analysis of the deposited data

Results flagged for a closer look

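The effect of the knockdown differed between compartments for 2 members by the interaction test. For Ccnd1 the fibroblast effect minus the epithelial effect was -0.73 (log2), and for Cdkn2b it was 0.62.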

How the results depend on the processing

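The count of members called in fibroblasts was 2 under each of 8 settings of scaling, tool, filter, gene length or cell class, and 0 to 3 with a library left out (1 without knockdown library 1, 0 without knockdown library 2, 1 without control library 1 and 3 without control library 2). The epithelial count was 0 under every alternative run. For the difference between compartments the count of 2 became 1 with DESeq2, 1 without the cycling classes and 0 to 4 with a library left out. Member-by-class calls numbered 7, and 4 to 10 with a library left out. Replicate numbers were shared by the groups, but with 2 pairs they do not show pairing (correlations of same-numbered deviations of 0.115 in fibroblasts and 0.083 in epithelium); the replicate block gave 5 calls in fibroblasts, adding Ccnd2, Cdkn1a and Cdkn2a, and 17 calls by class. Signs that turned belong to effects that were not called. Fixed weights turned Ccnd3 in fibroblasts to -0.12 (classes) and -0.14 (clusters). In epithelium Cdkn1a turned to 0.00503 with no filter, 0.0549 without cycling AT2 cells and 0.15 with the whole AT2 class, Cdkn1b to -0.0118 without cycling cells and Cdkn2b to 0.10 with the whole AT2 class. In the difference, leaving out cycling cells gave -0.14 for Ccnd2, -0.0347 for Cdkn2a and 0.0162 for Cdkn2c, and no filter gave -0.0117 for Cdkn2a. Leaving out a library gave ranges of -0.114 to 0.0821 for Cdkn1b and -0.0948 to 0.39 for Cdkn2c in fibroblasts. In epithelium the ranges were -0.0560 to 0.22 for Ccnd1, -0.19 to 0.0350 for Ccnd3, -0.40 to 0.30 for Cdkn1a, -0.0618 to 0.17 for Cdkn1b, -0.26 to 0.51 for Cdkn1c and -0.42 to 0.13 for Cdkn2b. In the difference they were -0.0809 to 0.25 for Ccnd2, -0.40 to 0.89 for Cdkn1c, -0.0733 to 0.14 for Cdkn2a and -0.78 to 0.00415 for Cdkn2c. The cause of these changes was not tested. Shares of cells with a UMI moved with depth and no result rests on them; rare members such as Cdkn1c are limited by counts.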

Other observations

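A small epithelial cluster, left unnamed in the class split, held 82 cells in control library 1. Ccnd2 stood there at 356 CPM from 211 UMIs, in the range of the fibroblast classes, beside Ccnd1 at 139 CPM. Airway secretory markers of this cluster summed to 95.3 and 7692 CPM in knockdown libraries, against 6578 and 1688 CPM in control libraries. AT2 cells held less of them in every library (14.7 and 187 CPM, against 1214 and 241 CPM). Basal markers of the cluster summed to 0 and 12.3 CPM in knockdown libraries, against 252 and 376 CPM in control libraries. The cluster held only 21 and 42 knockdown cells, and 25 cells in the other control library. These numbers lie under the minimum of 50 cells a library set for a class test. The marker sums of this cluster are thus a description and no comparison of the groups. With that cluster left out of the epithelial sums the log2 difference of Ccnd2 was -0.12, where it was -0.37 with it, and it passed in neither fit.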
